A study of Mus musculus with 16 samples.

Results

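The genes described here are the 94 protein-coding genes of mouse chromosome 5 that start within 10 Mb of Klotho (Kl), the gene mutated in these mice, out of 17903 protein-coding genes listed in both deposited tables. They were chosen by position alone, as genes that start at or after base 140876072 of chromosome 5 in build mm39. Of 98 such genes, 4 were left out by name, which were Kl itself, Flt1, Atp5j2 and Rpl21. Kl (150876072 to 150917283) lies near the end of the chromosome, and the last gene listed there stops 0.699 Mb past the start of Kl. For this reason 91 of the 94 genes start before Kl and only 3 (Stard13, Vmn2r18 and Rfc3) start after it.

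Polyadenylated RNA was sequenced from kidneys of 129S1/SvlmJ mice, an inbred strain onto which the Kl mutation had been moved by repeated backcrossing. There were 16 libraries in 4 groups. The male controls were heterozygous (+/Kl, n = 3, 45 to 46 days old) and were set against homozygous Kl/Kl males (n = 5, 44 to 47 days). The female controls were wild type (+/+, n = 4, 45 to 49 days) and were set against Kl/Kl females (n = 4, 45 to 54 days). All 4 groups share the 129S1/SvlmJ background. Per the labels, controls had healthy kidneys and Kl/Kl mice had renal failure, so homozygosity for the mutation and the disease always go together; the male controls carry the mutation on 1 chromosome without the disease. Sex, table and the genotype of the controls also go together and cannot be told apart. Whether each library is a separate animal is not stated in the labels, in which case p-values speak only for the spread among these libraries.

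Klotho is a membrane protein of the distal tubule that serves in the receptor for FGF23, a hormone that lowers phosphate. The mouse mutation arose from the insertion of a transgene next to the gene, and mice that carry it on both chromosomes lose nearly all Klotho. When a mutation is moved onto a new strain by backcrossing, the chromosome around it is inherited with it, and a stretch of the donor strain's DNA remains on both sides that shrinks with each generation. Genes in such a stretch can differ in expression between mutant and control because their alleles differ, whether or not they respond to the mutation. The comparison asked whether genes near Kl differed between Kl/Kl and control kidneys more often than genes elsewhere, and which of them differed the same way in the male and the female table. The tables hold expression values and no genotypes, so the strain of origin of these genes was not tested.

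Values are TPM, reads relative to gene length and library size. How they were computed is not stated. The values point to division by the whole genomic span with introns, which would set long genes low, and the estimated reads used below rest on this inference. Libraries held an estimated 21.6 to 31.9 M reads. Kl was 4.14 to 15.1 TPM in male controls and 0.0235 to 0.265 TPM in Kl/Kl males, and 9.19 to 21.2 TPM in female controls and 0.0268 to 0.518 TPM in Kl/Kl females. Female Kl/Kl replicate 3 did not look like kidney: 7 kidney tubule markers summed to 7.53 TPM there and to 672 to 4521 TPM in the other 15 libraries, while 5 heart muscle markers summed to 1836 TPM against 0.321 to 1.79 TPM. Male control replicate 3 had 54.3% of its summed values in mitochondrial genes, against 35.4% to 44.8% in the other 15 libraries. Results are therefore given in all 16 libraries and in the 14 libraries without these 2. Marker sums also differed between the male groups. The kidney tubule sum was 3948 to 4521 TPM in controls and 672 to 978 TPM in Kl/Kl. Most of it in controls came from Kap (3451 to 4081 TPM against 76.3 to 369 TPM). Aqp2 went the other way, at 38.6 to 67.6 TPM in controls and 100 to 190 TPM in Kl/Kl. Umod, Slc34a1, Slc12a1, Slc12a3 and Lrp2 overlapped between the male groups. The sum of 5 lymphocyte markers was 86.7 to 87.4 TPM in controls and 3.74 to 27.3 TPM in Kl/Kl, most of it from the immunoglobulin gene Igkc (84.1 to 85.5 TPM against 3.61 to 26.6 TPM), while the T cell marker Cd3e was 0.00998 to 0.0139 and 0.00532 to 0.0162 TPM. The sum of 5 endothelial markers was 7.52 to 14.3 TPM in controls and 13.7 to 26.8 TPM in Kl/Kl. That of 4 adrenal cortex markers was 0.319 to 0.393 TPM in controls. In Kl/Kl males the adrenal sum was 5.34 and 28.0 TPM in replicates 1 and 2, and 0.521 to 0.665 TPM in replicates 3, 4 and 5. The part of these marker sums in the results below was not tested. In bulk tissue, fewer cells of a type and less RNA per cell cannot be told apart.

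Of the 94 genes, Arpc1b was higher and Wasf3 lower in every Kl/Kl library than in every control of the same table, in both tables and with all 16 libraries. In the 14 libraries Cyth3 and Brca2 joined the first and Stard13 the second. Among genes averaging 0.1 TPM or more, this was 2.94% of those near Kl and 2.66% of all genes with all 16 libraries. In the 14 libraries it was 7.25% and 6.85%, so the shares near Kl were close to those of genes in general. The promoters of 4 of the 5 genes near Kl, all but Cyth3, are shown here so that their sequences can be read side by side. Among the 4, Arpc1b and Brca2 were higher in Kl/Kl, and Wasf3 and Stard13 were lower. Brca2 and Stard13 are the nearest to Kl of these genes. They are the 250 bases before the first start listed for each gene in RefSeq's reference (GRCm38.p6, which is the C57BL/6J genome and not that of 129S1/SvlmJ). They are in lower case and 5′ to 3′ along the gene. The starts used were not matched to the ends of the spans behind the TPM. Judged by the shift of Brca2 between the builds, the start used for Stard13 lies inside its span. Capitals mark matches on either strand to the GC box GGGCGG, the CCAAT box CCAAT or the cyclic AMP response element TGACGTCA, which do not overlap one another; the last was looked for after the sequences had been seen.
Arpc1b, chr5:145114006-145114255, plus strand: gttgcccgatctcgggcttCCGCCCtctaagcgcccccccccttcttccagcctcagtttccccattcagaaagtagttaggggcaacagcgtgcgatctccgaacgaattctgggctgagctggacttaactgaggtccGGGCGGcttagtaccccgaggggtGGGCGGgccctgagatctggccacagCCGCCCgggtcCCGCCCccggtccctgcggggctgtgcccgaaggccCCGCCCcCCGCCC
Wasf3, chr5:146384756-146385005, plus strand: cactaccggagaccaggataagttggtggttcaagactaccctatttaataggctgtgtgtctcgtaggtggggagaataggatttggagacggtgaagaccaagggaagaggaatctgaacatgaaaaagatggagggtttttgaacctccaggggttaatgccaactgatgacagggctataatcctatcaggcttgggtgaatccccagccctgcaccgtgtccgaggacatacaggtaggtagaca
Brca2, chr5:150522371-150522620, plus strand: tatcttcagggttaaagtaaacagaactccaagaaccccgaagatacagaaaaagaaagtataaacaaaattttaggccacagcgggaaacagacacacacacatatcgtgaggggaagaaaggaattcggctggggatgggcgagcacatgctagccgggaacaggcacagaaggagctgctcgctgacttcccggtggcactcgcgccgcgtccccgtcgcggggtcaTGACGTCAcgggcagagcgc
Stard13, chr5:151190194-151190443, minus strand: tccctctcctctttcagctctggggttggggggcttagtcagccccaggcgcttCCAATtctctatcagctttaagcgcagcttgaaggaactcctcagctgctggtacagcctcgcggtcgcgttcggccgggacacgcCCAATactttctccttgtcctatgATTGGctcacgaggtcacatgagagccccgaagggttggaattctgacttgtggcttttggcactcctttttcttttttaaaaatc
The Arpc1b promoter held 7 GC boxes, that of Stard13 held 3 CCAAT boxes and that of Brca2 held 1 cyclic AMP response element. In the Wasf3 promoter there was no match to any of the 3 motifs. Of 32851 promoters of the same length, 32.7% held a GC box, 33.8% a CCAAT box and 1.55% a cyclic AMP response element. These matches are descriptions of the letters and not evidence of binding. RefSeq promoters were matched by symbol for 75 of the genes.

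The change was tested with limma on log2(TPM + 0.1), so every log2 change is a difference on that scale and is smaller than the log2 ratio for genes at low levels. A gene is called where its Benjamini-Hochberg adjusted p over all genes tested is under 0.05. Genes needed an average of 0.1 TPM or more, which 68 of the 94 passed in the fit of all libraries. Among the 26 that did not pass were Flt3, a receptor of blood progenitors, Cdx2, a gut homeobox gene, the liver cytochromes Cyp3a11 and Cyp3a57, and the long genes Fry and Stard13. Averaged over the 16 libraries, the 94 genes ran from 0.000308 TPM (Vmn2r18) to 97.5 TPM (Actb). The highest single value among the 26 was 1.19 TPM, for Medag in female Kl/Kl replicate 3. The common change is the mean of the male and the female change, each taken within its own table, and the difference is the female change minus the male change.

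Measured this way, genes near Kl were called about as often as genes in general. In males 4 of 67 tested genes were called, where 5.22% of all genes were called; Rasl11a, Slc7a1 and Cyth3 were higher in Kl/Kl and Slc46a3 lower. Without male control replicate 3 the calls were 6 of 68 (Slc7a1, Arpc1b and Cyth3 higher, Slc46a3, Wasf3 and Hsph1 lower), against 7.07% of all genes. In females limma called 0 of 70, as it did for all genes (0%), with 2 at an unadjusted p under 0.05 (4.27% of all genes). Without female Kl/Kl replicate 3 it called 0 of 69, again with 0% of all genes called, and 12 had an unadjusted p under 0.05 (14.8% of all genes). For the common change 2 of 68 were called (2.94%), where 3.66% of all genes were called, and these were Arpc1b and Wasf3. In the 14 libraries 14 of 69 were called (20.3%), where 18.5% of all genes were called; 10 were higher in Kl/Kl and 4 lower. Groups that did not overlap in either table, in the same direction, were found for 2 of 68 (2.66% of all genes tested) and, in the 14 libraries, for 5 of 69 (6.85% of all genes tested). The male calls rest on few libraries. None of the 67 passed with male control replicate 1 or 2, or Kl/Kl replicate 1 or 4, left out. In those fits 1.73% to 2.73% of all genes were called. Without Kl/Kl replicate 2 or 5, 1 passed (2.95% and 4.34% of all genes), and without replicate 3, 2 passed (3.1%). The share of all genes called thus fell as well, from 5.22%.

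The size of the change was also near that of genes in general. The median common change was 0.05 on the log2 scale over the 68 tested genes and 0.03 over all genes, and 0.06 over both in the 14 libraries. In males the medians were 0.31 and 0.27 with all libraries, and 0.03 and 0.06 without control replicate 3. In females they were -0.21 and -0.19, and 0.13 and 0.08 without Kl/Kl replicate 3. The shift in males was smaller when each library was rescaled to the median of its ratios. The median of all genes in males was then 0.05 and that of the tested neighbours of Kl was 0.08. Such rescaling pulls the median of all genes toward no change by design, so it cannot show where the shift came from. The split of all called genes in males moved from 556 higher and 352 lower to 835 higher and 1002 lower. For the common change this split moved from 408 higher and 239 lower to 231 higher and 404 lower.

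**Figure D1:**
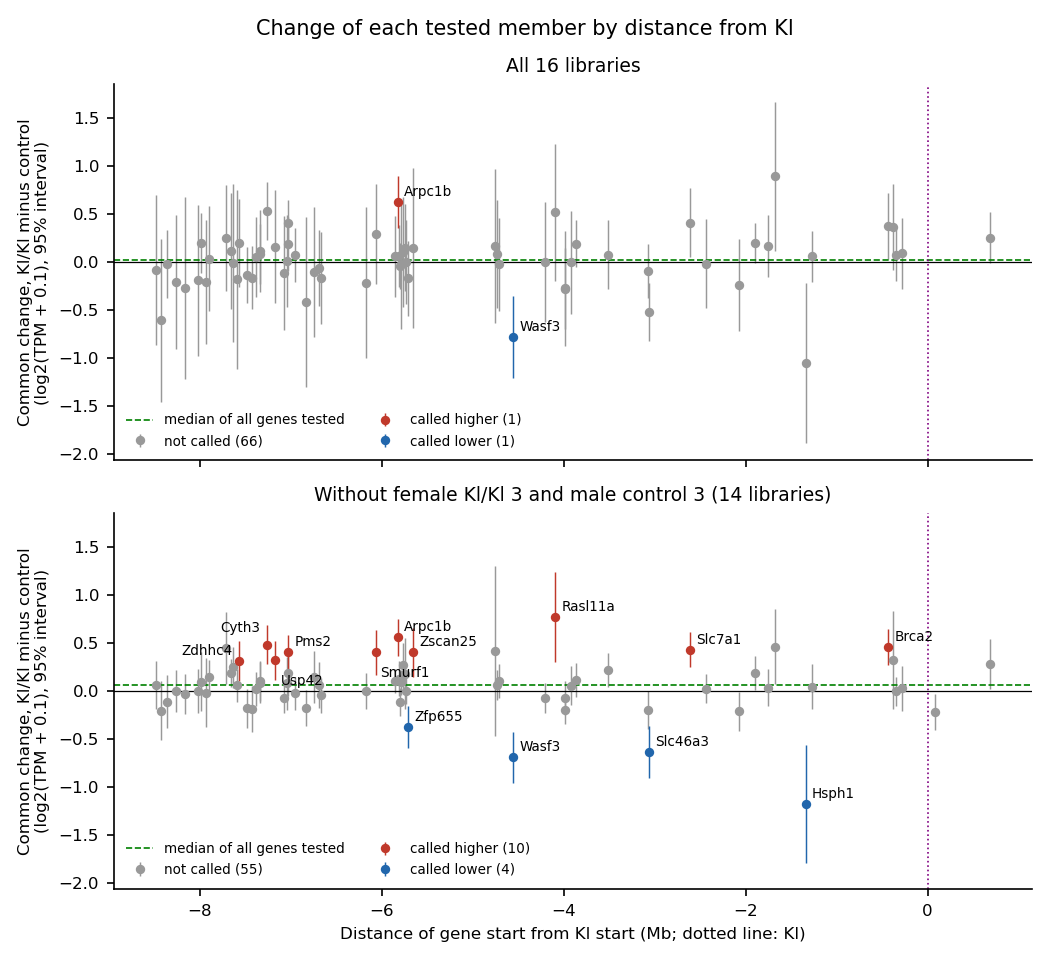
Common change of Kl/Kl against control for each tested gene (points, log2(TPM + 0.1), bars 95% intervals from limma) against the distance of its start from the start of Kl in Mb, in all 16 libraries (top) and in 14 (bottom). The 2 genes called in the top panel lie 5.83 and 4.55 Mb before Kl, and the 14 called in the bottom panel run from 7.57 Mb (Zdhhc4) to 0.43 Mb (Brca2) before Kl.

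The share of called genes by distance depended on the measure in the classes nearest to Kl. With all libraries 0 of 5 tested genes within 1 Mb of Kl and 0 of 5 between 1 and 2 Mb were called by limma, then 1 of 16 between 2 and 5 Mb and 1 of 42 between 5 and 10 Mb. Of the 10 within 2 Mb, 3 had an unadjusted p under 0.05, where 15.9% of all genes had. In the 14 libraries these counts were 1 of 6, 1 of 5, 4 of 16 and 8 of 42. The 2 called within 2 Mb were Brca2, which was higher in Kl/Kl, and the heat shock gene Hsph1, which was lower. Farther along the chromosome, 22 of 118 protein-coding genes between 10 and 20 Mb (18.6%) and 17 of 106 between 20 and 30 Mb (16.0%) were called in the same fit. On estimated reads, described below, the shares were 42.9% within 1 Mb (3 of 7) and 60% between 1 and 2 Mb (3 of 5). The next 3 classes had 33.3%, 33.3% and 34.2%, and all genes 33.4%. Some classes far from Kl also had high shares: 42.9% between 60 and 70 Mb, 52.9% between 90 and 100 Mb and 52.6% between 100 and 110 Mb. The classes nearest to Kl hold so few genes that a single call makes up a large share: in the 14 libraries 1 of 6 was 16.7% and 1 of 5 was 20%. No test of a trend was made.

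**Figure D2:**
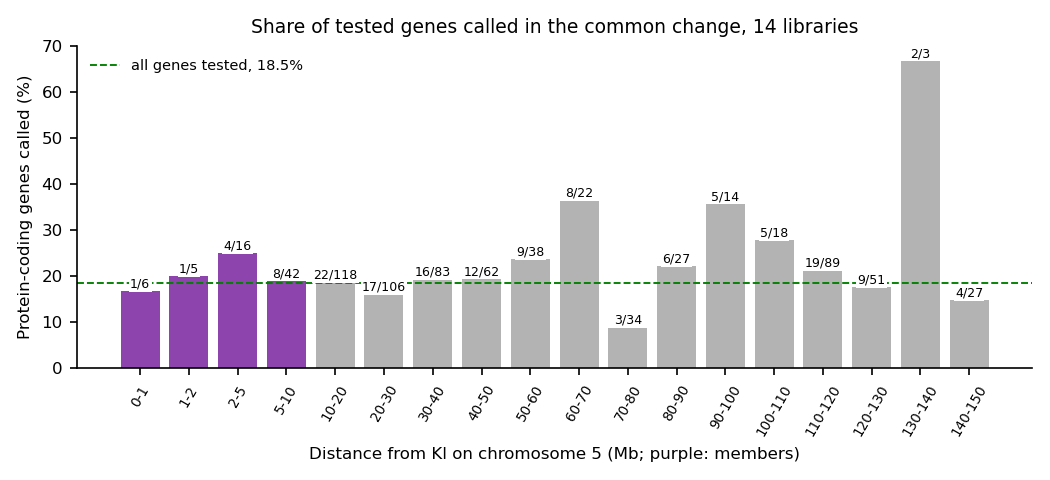
Share of tested protein-coding genes of chromosome 5 called in the common change of the 14 libraries, by distance from Kl in Mb, with called and tested counts over the bars and the share of all genes (18.5%) as a dashed line. The 4 purple classes within 10 Mb run from 16.7% to 25%, and the tallest bar holds only 3 tested genes.

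Arpc1b encodes a subunit of the Arp2/3 complex, which starts new actin branches, and is the form of that subunit that is abundant in blood cells. It lies 5.83 Mb before Kl (145051025 to 145067516). In males it was 2.83, 2.80 and 1.97 TPM in the controls and 4.83, 4.85, 3.80, 4.50 and 3.90 TPM in Kl/Kl. In females it was 3.57, 2.88, 2.95 and 2.85 TPM in the controls and 3.80, 4.57, 4.12 and 4.85 TPM in Kl/Kl. No Kl/Kl library fell within the range of its controls, and female Kl/Kl replicate 3, which lacked kidney genes, stood inside the range of its group. Group means were 2.53 ± 0.48 TPM in control and 4.38 ± 0.50 TPM in Kl/Kl males (SD, n = 3 and 5; 1.73-fold), and 3.06 ± 0.34 TPM in control and 4.33 ± 0.47 TPM in Kl/Kl females (SD, n = 4 and 4; 1.41-fold). The common change was 0.63 (SE 0.13, limma adjusted p = 0.0154), and 0.56 (SE 0.09, adjusted p = 0.00181) in the 14 libraries. It was called in each fit that left out 1 library; with all libraries its adjusted p was 0.0646 after median-of-ratios scaling and 0.0737 without Kl/Kl males 1 and 4. Its gene overlaps Pdap1 on the other strand, and the use of strand in counting is not given in the sources used here. The sum of 6 macrophage markers, all listed and none at 0, was higher in Kl/Kl males: it was 6.75 to 11.5 TPM in male controls and 15.5 to 25.1 TPM in Kl/Kl males, and 10.7 to 17.7 TPM in female controls and 13.1 to 40.4 TPM in Kl/Kl females other than replicate 3, where it was 494 TPM. Of the 6, Cd14, Lyz2 and Cd68 were higher in all Kl/Kl males than in all male controls. Cd14 was 1.53 to 2.55 TPM in male controls and 5.83 to 12.3 TPM in Kl/Kl males, and Lyz2 1.30 to 2.55 and 5.51 to 9.23 TPM. Cd68 was 0.776 to 0.927 and 1.19 to 2.92 TPM. Csf1r went the other way, at 1.91 to 3.18 TPM in male controls and 0.879 to 1.87 TPM in Kl/Kl males. C1qa and Adgre1 overlapped between the male groups. Their part in the result was not tested.

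Wasf3 encodes a WAVE protein, which turns on the Arp2/3 complex, and it lies 4.55 Mb before Kl (146321795 to 146410426). In males it was 0.326, 0.287 and 0.194 TPM in the controls and 0.0691, 0.145, 0.105, 0.0935 and 0.148 TPM in Kl/Kl. In females it was 0.306, 0.258, 0.242 and 0.252 TPM in the controls and 0.200, 0.118, 0.00926 and 0.202 TPM in Kl/Kl. All Kl/Kl values lay under all control values of the same table, and the lowest by far was female Kl/Kl replicate 3. The mean fell to 0.417 of the control mean in males and to 0.501 in females, or to 0.366 and 0.656 without the libraries that stood apart. The common change was -0.78 (SE 0.20, limma adjusted p = 0.0449) and -0.69 (SE 0.12, adjusted p = 0.00347) in the 14 libraries. With all libraries its adjusted p lay close to the threshold and was over it with male control 1 or 2, male Kl/Kl 1, 2, 3 or 4, female control 1, 2, 3 or 4, or female Kl/Kl 2 left out (0.0593 to 0.111); in the 14 libraries it stayed called with each further library left out. In the fit of all libraries but Kl/Kl males 1 and 4, it was 0.17.

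**Figure D3:**
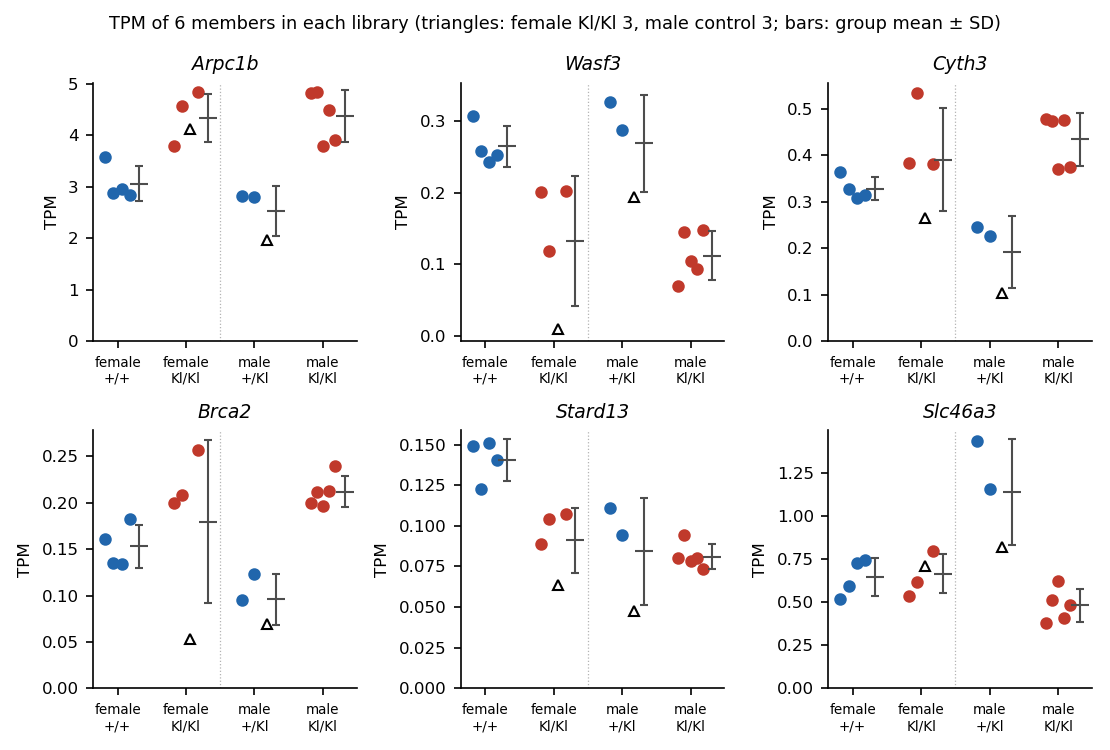
TPM of 6 genes in each library, with the group mean ± SD beside the points and open triangles for female Kl/Kl 3 and male control 3. Arpc1b is higher and Wasf3 lower in all Kl/Kl libraries of both tables, while Slc46a3 separates the groups in males and not in females.

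Cyth3 (143608202 to 143696006) encodes an exchange factor for small GTPases of the Arf family. It was 0.245, 0.226 and 0.103 TPM in male controls and 0.477, 0.473, 0.371, 0.474 and 0.374 TPM in Kl/Kl males. Female values were 0.364, 0.327, 0.307 and 0.314 TPM in controls and 0.383, 0.534, 0.265 and 0.380 TPM in Kl/Kl. All Kl/Kl libraries but female replicate 3 lay above their controls. The common change was 0.54 (SE 0.14, limma adjusted p = 0.0519) with all libraries and 0.48 (SE 0.09, adjusted p = 0.00519) in 14.

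Brca2, the mediator of DNA repair by homologous recombination, starts 0.43 Mb before Kl (150446095 to 150493795). It was 0.0955, 0.124 and 0.0690 TPM in male controls and 0.200, 0.212, 0.196, 0.213 and 0.239 TPM in Kl/Kl males. Female values were 0.161, 0.136, 0.134 and 0.182 TPM in controls and 0.200, 0.209, 0.0534 and 0.257 TPM in Kl/Kl. The male groups did not overlap, and in females the 3 Kl/Kl libraries other than replicate 3 lay above all controls. Means were 2.21-fold higher in Kl/Kl males and, without replicate 3, 1.45-fold higher in Kl/Kl females. The common change was 0.38 (SE 0.16, limma adjusted p = 0.257) with all libraries and 0.46 (SE 0.09, adjusted p = 0.00505) in 14. Another listed gene, Gm42531, overlaps Brca2 on the same strand, so reads can be shared between them.

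Stard13 (150960975 to 151157302) is the nearest gene of all, and the lower end of its span lies 0.085 Mb past the start of Kl. It was 0.111, 0.0946 and 0.0473 TPM in male controls and 0.0799, 0.0941, 0.0782, 0.0802 and 0.0732 TPM in Kl/Kl males. Female controls had 0.149, 0.123, 0.151 and 0.140 TPM and Kl/Kl females 0.0889, 0.104, 0.0638 and 0.107 TPM. The female groups did not overlap, whereas in males control replicate 3 lay below all Kl/Kl libraries and controls 1 and 2 above them, the latter by a narrow margin. It spans 196 kb and, with low TPM, had 334 to 875 estimated reads per library. On log2(TPM + 0.1) the change in the 14 libraries was -0.21 (SE 0.09, limma adjusted p = 0.102).

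Because division by span would set long genes low, the tests were repeated on estimated reads (TPM multiplied by span, with limma's voom weights) for genes averaging 50 reads or more, an alternative added after the data had been seen. In the 14 libraries 25 of 69 genes near Kl were then called for the common change, 20 higher and 5 lower, where 33.4% of all genes were called. In males without control replicate 3 the count was 14 of 69, where 18.5% of all genes were called. In females without Kl/Kl replicate 3 it was 0 of 69 by voom, where 0.207% of all genes were called. Stard13 was lower by this measure, by -0.38 (SE 0.08, voom adjusted p = 0.00448), with -0.25 in males (adjusted p = 0.263) and -0.51 in females (adjusted p = 0.0658). Fry, a large scaffold protein 0.83 Mb before Kl (150042110 to 150421219), was higher by 0.43 (adjusted p = 0.0019), and Brca2 by 0.79 (adjusted p = 0.000277). By distance, 3 of 7 were called within 1 Mb, 3 of 5 between 1 and 2 Mb, 5 of 15 between 2 and 5 Mb and 14 of 42 between 5 and 10 Mb, and 40 of 117 between 10 and 20 Mb.

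The other genes within 1 Mb of Kl gave small or uneven differences. Pds5b, a regulator of cohesin, starts 0.279 Mb before Kl and had a common change of 0.10 with all libraries and 0.03 in 14. N4bp2l2 (0.345 Mb before Kl) had 0.08 and -0.0039. Rfc3, a subunit of the clamp loader of DNA replication 0.69 Mb past Kl, had 0.26 and 0.28 (limma adjusted p = 0.321 and 0.12). Rfc3 was 0.546, 0.444 and 0.503 TPM in male controls and 0.635 to 0.790 TPM in Kl/Kl males, which did not overlap, but 0.440 to 0.809 TPM in female controls and 0.570 to 0.729 TPM in Kl/Kl females, which did. N4bp2l1 (0.381 Mb before Kl) was 0.242 to 0.368 TPM in male controls and was high in Kl/Kl males 1 and 4 alone, at 1.17 and 0.888 TPM, with 0.331 to 0.469 TPM in the other 3. In females N4bp2l1 was 0.334 to 0.383 TPM in controls and 0.291 to 0.462 TPM in Kl/Kl, and its common change was 0.37 (adjusted p = 0.442). Vmn2r18, a pheromone receptor gene, had at most 3 estimated reads in any library, and Rxfp2, a relaxin family receptor, at most 0.00627 TPM; neither was tested. Reads may be shared with overlapping listed genes on the same strand for Pds5b (Gm43807) and N4bp2l1 (Gm43598), and with genes on the other strand for Fry, Alox5ap, Zdhhc4, Polr1d, Aimp2 and Daglb.

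By role, the set of actin and small GTPases, with 11 genes listed, was the only one with calls for the common change in the limma fit of all libraries. Of 9 tested, 1 was higher in Kl/Kl (Arpc1b) and 1 lower (Wasf3), where 3.66% of all genes were called. In the 14 libraries 3 of 10 were higher (Arpc1b, Cyth3 and Rasl11a) and 1 lower, where 18.5% of all genes were called, and on estimated reads 3 were higher and 2 lower (33.4% of all genes). Actb, which encodes beta-actin, had the highest TPM of the region, 72.0 to 152 TPM, and its common change was 0.20 (limma adjusted p = 0.583). Rasl11a, a small GTPase of the Ras family, was 1.98, 1.31 and 1.38 TPM in male controls and 5.38, 2.75, 2.90, 5.32 and 3.45 TPM in Kl/Kl males. It did not overlap between the male groups and was highest in Kl/Kl replicates 1 and 4. In females it was 1.73 to 3.75 TPM in controls and 0.522 to 3.51 TPM in Kl/Kl, which overlapped.

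Of 6 tested genes for DNA repair and chromosomes, none was called with all libraries. In that limma fit 2 had an unadjusted p under 0.05, where 15.9% of all genes had. In the 14 libraries 2 were higher (Brca2 and Pms2), where 18.5% of all genes were called. On estimated reads 3 were higher, where 33.4% of all genes were called. Pms2, a mismatch repair gene, was 0.222, 0.214 and 0.152 TPM in male controls and 0.310 to 0.386 TPM in Kl/Kl males. In females Pms2 was 0.228 to 0.304 TPM in controls and 0.246 to 0.413 TPM in Kl/Kl, so only the male groups were apart. Its common change was 0.41 (limma adjusted p = 0.0676) and 0.40 (adjusted p = 0.00866) in the 14 libraries. Pms2 shares its strand with the overlapping genes Rsph10b and Gm42421.

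Among 17 genes of protein folding, ubiquitin and trafficking, none was called with all libraries. There 1 had an unadjusted p under 0.05 in limma, where 15.9% of all genes had. On estimated reads 4 were higher and 1 lower, where 33.4% of all genes were called. In the 14 (18.5% of all genes called), Usp42, a ubiquitin protease, Smurf1, a ubiquitin ligase of the BMP pathway, and Zdhhc4, a palmitoyltransferase, were higher, by 0.32, 0.41 and 0.31, and Hsph1 was lower by -1.18 (SE 0.28, limma adjusted p = 0.0144). Hsph1, a large chaperone of the HSP110 group, was 17.2, 10.1 and 3.07 TPM in male controls and 3.23, 5.46, 5.26, 1.91 and 4.35 TPM in Kl/Kl males. Female values were 6.33, 16.3, 13.6 and 8.79 TPM in controls and 8.36, 7.04, 2.04 and 5.92 TPM in Kl/Kl. With all libraries the groups overlapped in both tables. Without control replicate 3 the male groups did not overlap. Its common change was -1.05 (SE 0.39, adjusted p = 0.185) with all libraries.

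Of 16 genes of transcription, RNA and translation none was called with all libraries, and none had an unadjusted p under 0.05 (15.9% of all genes). In the 14 (18.5% of all genes called) 1 was lower, the zinc finger gene Zfp655, by -0.37 (SE 0.10, limma adjusted p = 0.0238). On estimated reads 4 of these 16 were higher and 1 lower (33.4% of all genes called). Zfp655 was lower in all 5 Kl/Kl males than in controls 1 and 2, and overlapped in females. Zscan25, a zinc finger gene outside these lists, was higher by 0.40 (adjusted p = 0.031) in the 14 libraries. Zscan25 was 0.813 to 0.897 TPM in female controls and 1.03, 0.937, 0.0291 and 1.11 TPM in Kl/Kl females, above all controls except in replicate 3. Of 4 tested receptor, immune and signalling genes none was called in the limma fit of all libraries (3.66% of all genes called) or of 14 (18.5%). In each fit 1 had an unadjusted p under 0.05, where 15.9% and 34.6% of all genes had. On estimated reads, where 33.4% of all genes were called, 1 of the 4 was higher. The largest value among them was that of Alox5ap, the leukocyte protein that feeds leukotriene synthesis, with a common change of 0.90 (adjusted p = 0.233). It was 2.01 TPM in female Kl/Kl replicate 3 and 0.0381 to 0.288 TPM in the other 15 libraries, and without both libraries its change was 0.46 (adjusted p = 0.0909).

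The difference between the female and the male change was called by limma for 0 of 68 genes, where 0.317% of all genes were called. Among these genes voom also called 0, and it called 0.226% of all genes. Before adjustment 6 genes were under 0.05 in limma, where 8.82% of all genes were. In the 14 libraries the difference was called for 1 of 69, where 2.39% of all genes were called. That gene was Slc46a3, a lysosomal transporter 3.06 Mb before Kl (147815247 to 147831626). It was 1.44, 1.16 and 0.824 TPM in male controls and 0.382, 0.515, 0.623, 0.407 and 0.484 TPM in Kl/Kl males. In females it was 0.521, 0.594, 0.728 and 0.747 TPM in controls and 0.539, 0.617, 0.710 and 0.800 TPM in Kl/Kl. All Kl/Kl males lay below all male controls, while the female groups overlapped throughout and covered nearly the same range. The male change was -1.27 (SE 0.18, adjusted p = 0.0109) without control replicate 3, and the female change was 0.01 (SE 0.16, adjusted p = 0.991) without Kl/Kl replicate 3. The difference was 1.28 (SE 0.25, adjusted p = 0.019), and with all libraries 1.11 (SE 0.28, adjusted p = 0.215). Its common change of -0.63 (adjusted p = 0.006) is thus the mean of a fall in males and no called change in females. The same transport list holds Slc7a1, a carrier of arginine and lysine, which was 0.179, 0.155 and 0.0700 TPM in male controls and 0.283 to 0.341 TPM in Kl/Kl males without overlap. In females Slc7a1 was 0.184 to 0.280 TPM in controls and 0.0862 to 0.305 TPM in Kl/Kl, with overlap, and its common change was 0.43 (adjusted p = 0.00603) in the 14 libraries.

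**Figure D4:**
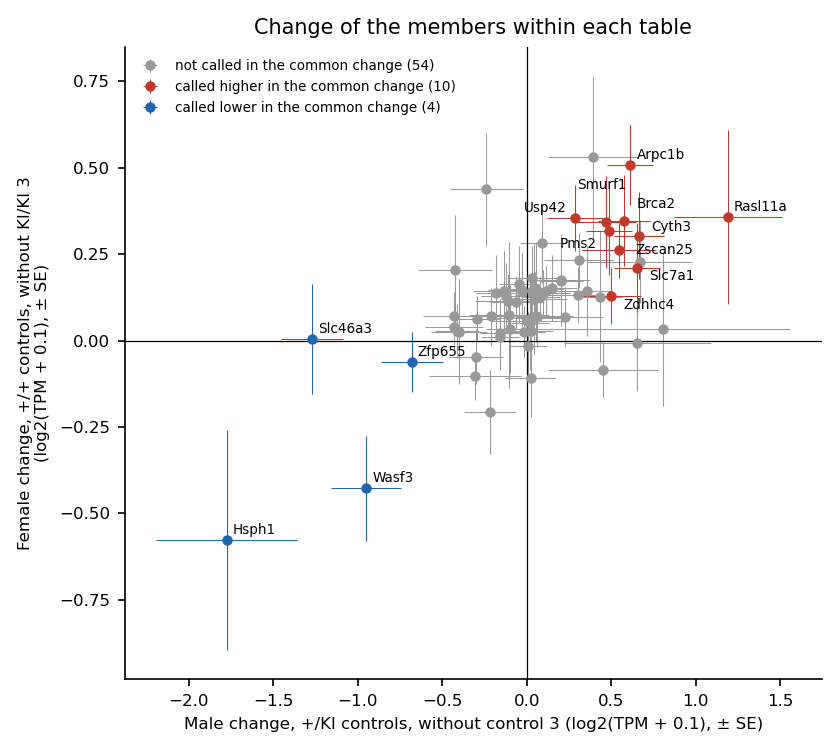
Change within the male table without control 3 (horizontal, ± SE) against change within the female table without Kl/Kl 3 (vertical, ± SE), log2(TPM + 0.1), for the 68 genes tested in both; colours mark calls in the common change of the 14 libraries. Arpc1b and Wasf3 lie away from 0 on both axes, and Slc46a3 lies at -1.27 in males and 0.01 in females.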

How the data were processed

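The genes, role lists and rules were chosen with earlier results of these data known. TPM values were deposited by the authors as a male and a female table of 8 libraries. Per the submitters' processing notes the build was mm39 and the program Partek; which aligner, counting method and strand setting were used is not given in the sources used here. Columns total 285327 TPM in the male and 265288 TPM in the female table, so groups were compared within tables. Estimated reads are TPM multiplied by genomic span, a divisor inferred from the values; 65.5% to 68.0% of low values fell within 0.05 of a whole read, so they are not counts and carry no counting interval. Genes averaging 0.1 TPM or more were tested with limma 3.58.1 in R 4.3.3 (lmFit, eBayes with trend) on log2(TPM + 0.1), adjusted over all genes tested. The small filter and pseudocount suit TPM relative to span. Scripts were tested on simulated data. Named genes were those called, those whose groups did not overlap in both tables, the nearest 5 on each side of Kl, those called for the difference, and 2 from each role list. One listed name, Fam220a, has 2 rows. Replicate numbers did not pair the samples (correlations of deviations -0.137 to 0.151). Alternatives were other filters, pseudocounts and scaling, voom, a replicate block, the library name prefix and leaving out libraries. Python 3.11.15 and matplotlib 3.10.9 drew the plots.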

Additional observations from a re-analysis of the deposited data

Results flagged for a closer look

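Within groups of 4 or 5, some libraries stood far from the rest of their group for named genes; chance flags about 1 in 20 groups. Arpc1b was 3.57 TPM in female control replicate 1, above the 2.85 to 2.95 TPM of the other 3 female controls. N4bp2l2 was 0.915 TPM in male Kl/Kl replicate 2 and 0.777 to 0.799 TPM in the other 4. Zscan25 was 0.897 TPM in female control replicate 4 and 0.813 to 0.823 TPM in the other 3.

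Female Kl/Kl replicate 3, the library nearly without kidney transcripts, met this rule for 4 of the named genes, and lay far below the other Kl/Kl females for others as well (Smurf1 0.0472 against 0.341 to 0.463 TPM, Usp42 0.153 against 0.945 to 1.11 TPM). Pds5b was 0.218 TPM there and 0.414 to 0.442 TPM in the other 3 Kl/Kl females, Ap5z1 (a subunit of a late endosome adaptor) 0.0632 against 1.37 to 1.55 TPM, and Zscan25 0.0291 against 0.937 to 1.11 TPM. Alox5ap was high there, at 2.01 against 0.140 to 0.288 TPM.

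Slc46a3 differed between the tables: the female minus male change was 1.28 in the 14 libraries (limma adjusted p = 0.019), with a called fall in males and none in females.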

How the results depend on the processing

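The count of called genes near Kl moved with the settings; the share of all genes called stands in brackets. In males it was 4 (5.22%). It became 2 with a filter at 1 TPM (5.94%), 0 without a filter (2.12%), 7 with median-of-ratios scaling (10.6%) and 12 with voom (15.9%). It was 11 with the library name prefix (11.8%) and 0 without Kl/Kl males 1 and 4 (1.68%). Without male control 3 it was 7 with median-of-ratios scaling (9.01%) and 11 with voom (13.5%). In males, leaving out 1 library gave 0 to 6 (1.73% to 7.07%). For the common change it was 2 (3.66%), and became 4 with a pseudocount of 1 (3.96%), 1 with a filter at 1 TPM (4.39%), 1 without a filter (2.97%), 5 with voom (5.15%), 1 with the prefix (3.39%), 0 without Kl/Kl males 1 and 4 (1.16%) and 14 without female Kl/Kl 3 and male control 3 (18.5%). In those 14 libraries it was 5 with filter and pseudocount at 1 (24.2%), 15 with median-of-ratios scaling (21.0%) and 22 with voom (25.8%). It was 25 with voom at a mean of at least 50 reads (33.4%) and 16 with the prefix (21.6%). Leaving out 1 library, from the 16 or from the 14, gave 1 to 18 (1.57% to 22.2%). With the other libraries all kept, leaving out female Kl/Kl 3 gave 12 (13.9%). In the 14 libraries it was 8 without male control 2 (7.49%), and 9 without male control 1 (8.57%) or female Kl/Kl 2 (11.0%). Within 2 Mb of Kl the count for the common change was 0 (3.66%), and 2 in the 14 libraries (18.5%). Non-overlapping genes numbered 2 (2.66% of all genes tested) and 5 in the 14 libraries (6.85%). They numbered 1 with a filter at 1 TPM, 6 in the 14 libraries with median-of-ratios scaling, and 2 to 4 with 1 library left out. For these other settings no share of all genes is given, so their counts cannot be read against genes in general. The difference between tables was called for 0 (0.317%), and for 1 in the 14 libraries (2.39%). In females the count was 0 in every alternative run. With the replicate block it was 0 in males (1.51%) and 0 for the common change (0.6%), or 7 in the 14 libraries (11.1%), but the numbers do not pair the samples and the block uses up degrees of freedom.

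For the common change, signs turned only for N4bp2l2 and Pds5b among the named genes and these alternatives. Within a table, leaving out 1 library gave both signs for 13 named genes in females, such as Zscan25 (-0.82 to 0.26) and Usp42 (-0.40 to 0.35), and for Zfp655 in males (-0.68 to 0.06). N4bp2l2 was -0.0039 in the 14 libraries, -0.0388 there with median-of-ratios scaling and -0.0296 with the prefix, and Pds5b -0.0019 and -0.0194; with 1 library left out N4bp2l2 ran from -0.0460 to 0.1399 and Pds5b from -0.0623 to 0.1862. The cause was not tested. Zscan25 in females was 0.26 without Kl/Kl replicate 3, and -0.82 to -0.49 with any other library left out. Alox5ap in females was 0.53 without that replicate, and 1.14 to 1.58 with any other library left out. Depth can limit genes with few estimated reads, and its part here was not tested. The female comparison called almost no gene at all.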
